A study of Mus musculus with 21 samples.

Results

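The STAT family of transcription factors was followed in conventional dendritic cells (cDCs) of the mouse thymus and spleen through 6 genes, Stat2, Stat3, Stat4, Stat5a, Stat5b and Stat6, chosen by gene name among the 37734 genes listed for each library. cDCs are antigen-presenting cells with 2 subsets, cDC1 and cDC2, and in the thymus they present self antigens to developing T cells. All cells came from C57BL/6 mice of 6 to 8 weeks with no genetic change or treatment named in the labels, and thymuses or spleens of several mice were pooled before sorting. CD11c-bead-selected cells were sorted by FACS. The cDC1 were CD24+ and CD11b- after exclusion of cells with B220, DX5, Ly6c, Ly6g or a macrophage marker, and the cDC2 were CD11b+ and CD24-, with B220+ cells excluded. Immature cells were CCR7- Esam- and mature cells CCR7+ Esam+, and mature cells were taken from the thymus only. The 6 groups were splenic immature cDC1 (4 samples), splenic immature cDC2 (3), immature thymic cDC1 (4), immature thymic cDC2 (3), mature thymic cDC1 (3) and mature thymic cDC2 (3), and the splenic groups are called splenic cDC1 and splenic cDC2 from here on. Nothing in the labels says that the samples of a group came from separate sorts, so p-values measure the spread between these samples, which may be technical.

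STAT proteins wait in the cytoplasm until a cytokine binds its receptor. Janus kinases (JAKs) bound to the receptor then phosphorylate them, the STATs pair and enter the nucleus, and they switch on target genes that include their own inhibitors of the SOCS family. STAT2 carries the type I interferon signal together with IRF9, STAT3 serves IL-6, IL-10 and IL-21, STAT4 serves IL-12 and IL-23, the 2 STAT5 proteins serve GM-CSF, IL-2, IL-7 and TSLP, and STAT6 serves IL-4 and IL-13.

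The 21 libraries held between 14266867 and 40119669 reads assigned to genes. Splenic cDC1 libraries 4 and 5 shared label number, index and lane, and their counts were much closer (chi-square over degrees of freedom 2.44) than in the other pairs of the group (25.0 to 176), so their mean was counted as 1 sample, named replicate 4-5, which left 20 samples. Splenic cDC1 library 1, on lane 5, carried the same label number as libraries 4 and 5 and was kept as a separate sample. Immature thymic cDC1 libraries 3 and 4 likewise shared label number, index and lane. Their counts differed more (92.8) than those of any other pair of the group, so they were kept as separate samples. Of the 21 libraries, 6 carried lane 5 in their labels and 15 carried lane 8, and both mature groups were on lane 8 only. Among the genes used for sorting, Ccr7 averaged 110227 normalized reads in mature thymic cDC1 and 714 in immature thymic cDC1. The 5 maturation markers listed were Ccr7, Esam, Fscn1, Ccl22 and Relb. They summed to 414758 to 546851 in mature thymic cDC1 and 369719 to 523088 in mature thymic cDC2. In the immature thymic cells the sums were 3508 to 5451 in cDC1 and 21543 to 31432 in cDC2. There 3 of 5 were called (defined below) higher in cDC2 and 1 lower, where 16.4% of all genes were called. In splenic cells the sums were 2147 to 4668 in cDC1 and 7404 to 17064 in cDC2. Between tissues 1 of 5 was called in cDC1, higher in thymus, where 8.77% of all genes were called. In cDC2, 2 of 5 were called higher and 2 lower in thymus, where 14.2% of all genes were called. The part of these differences in the levels of the STAT genes and of the other genes below was not tested. The cDC1 gene Xcr1 averaged 19098 in immature and 440 in mature thymic cDC1. The cDC2 gene Sirpa averaged 22676 in splenic, 15302 in immature thymic and 7413 in mature thymic cDC2. Of 6 cDC1 genes listed, 5 were called lower and 1 higher with maturation in cDC1, where 24.5% of all genes were lower. Of 5 cDC2 genes listed, 4 were called lower and none higher with maturation in cDC2, where 17.0% were lower. The 5 cDC2 genes summed to 37637 to 45877 in splenic, 46867 to 49132 in immature thymic and 13928 to 17615 in mature thymic cDC2.

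Values are normalized read counts, which are reads scaled between libraries but not by gene length. Groups were compared on log2(value + 1) with limma, and a gene passed the test at an adjusted p under 0.1. A gene was called when it also differed by more than 2-fold. With maturation in thymic cDC1, Stat3, Stat4 and Stat5a rose by more than 2-fold, and this made 3 of the 6 STAT genes called where 45.7% of the 14970 genes tested were called in either direction. With maturation in thymic cDC2, Stat3 and Stat4 were called, 2 of 6 where 35.6% of all genes were. Between thymus and spleen, Stat2 rose and Stat4 fell in cDC1 (2 of 6, against 8.77% of all genes), and Stat5a rose and Stat4 fell in cDC2 (2 of 6, against 14.2%). Leaving out 1 sample at a time, the cDC2 count was 0 without splenic cDC2 replicate 2 and 1 without any other sample of the 2 groups. Stat4 and Stat5a were higher in cDC2 than in cDC1 both in spleen (2 of 6, against 16.6% of all genes in either direction and 9.93% higher) and among immature thymic cells (2 of 6, against 16.4% and 11.0%), with splenic Stat5a just past the 2-fold line, and no STAT gene was called between the mature subsets (0 of 6, against 18.9%). That last count was 1 of 6 by the adjusted p alone, against 30.3% of all genes, and 1 gene, Stat2, also had an unadjusted p under 0.05. With edgeR and with DESeq2 on recovered reads the count was 0 as well.

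**Figure D1:**
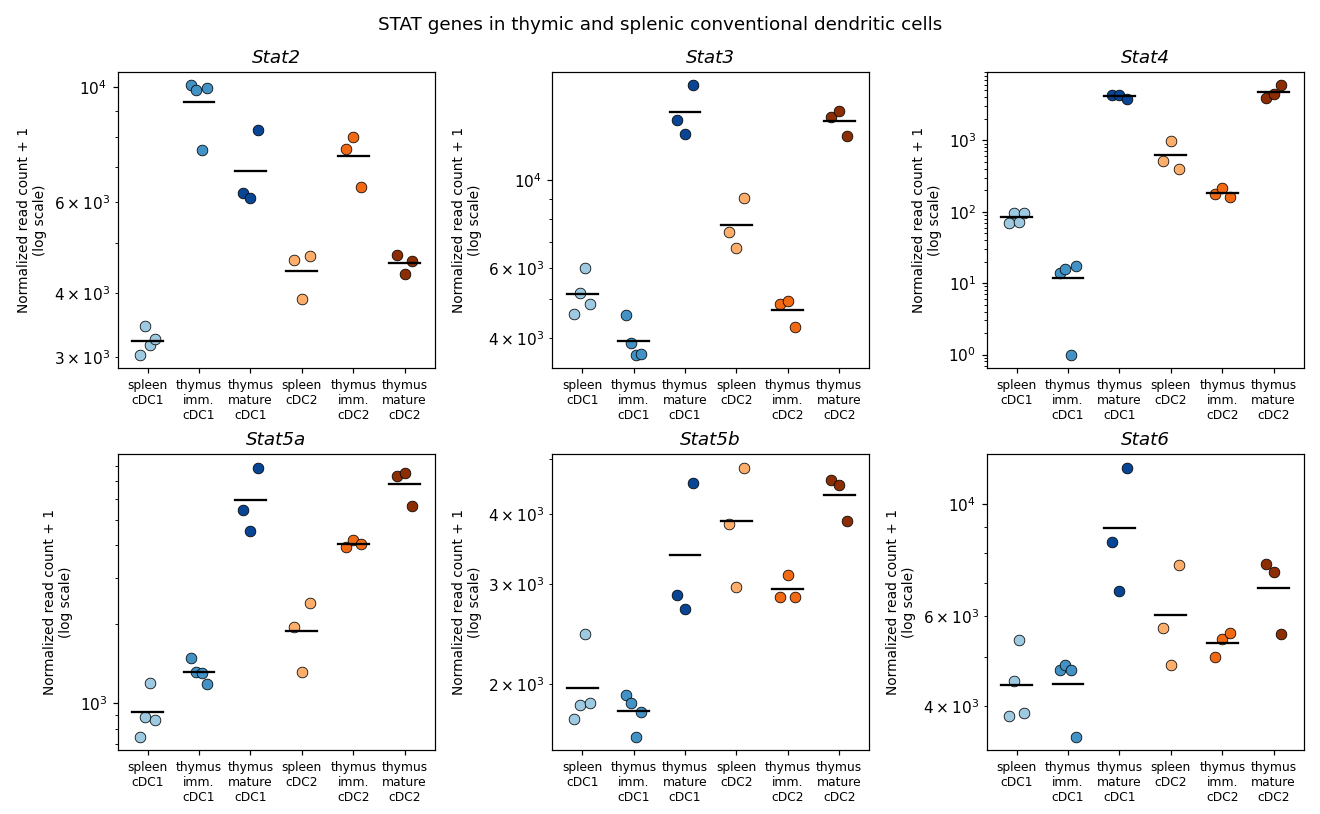
Normalized read count plus 1 of each STAT gene on a log axis, with 1 point per sample and a line at the group mean for the 6 groups. Stat4 runs from 0 reads in 1 immature thymic cDC1 sample to 5874 in a mature thymic cDC2 sample, whereas Stat2 is highest in immature thymic cDC1.

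Stat2, the partner of IRF9 in interferon signalling, was the STAT gene with the largest rise from spleen to thymus in cDC1. Its normalized read counts were 3034, 3446, 3167 and 3250 in splenic cDC1 and 10094, 9906, 7571 and 9977 in immature thymic cDC1. The lowest thymic sample was above the highest splenic one, and the log2 fold change was 1.53 (SE 0.13, adjusted p = 3.45e-08). In cDC2 the counts were 4620, 3887 and 4701 in spleen and 7588, 8027 and 6425 in the immature thymic cells, a smaller rise (log2 fold change 0.74, SE 0.15, adjusted p = 0.00107) without overlap. The 2 tissue effects differed (cDC2 minus cDC1 -0.80, SE 0.19, adjusted p = 0.0185). Stat2 was thus the 1 STAT gene of 6 whose tissue effect differed between the subsets by the adjusted p, against 6.25% of all genes, and none of 6 differed by over 2-fold, against 4.98%. Within lane 8 the difference was -0.89 with an adjusted p of 0.315.

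Mature cells held less Stat2 than immature thymic cells, a comparison that shares the immature thymic samples with the tissue comparison. Mature thymic cDC1 had 6244, 6114 and 8267 normalized reads of Stat2 (log2 fold change -0.45, SE 0.14, adjusted p = 0.00788), and the highest of these samples lay within the immature range. Mature thymic cDC2 had 4726, 4347 and 4599, all below the immature cells (-0.68, SE 0.15, adjusted p = 0.000675), and these values overlapped those of splenic cDC2 (difference 0.05, adjusted p = 0.789). Between subsets Stat2 changed sides: it was higher in cDC2 than in cDC1 in spleen (0.45, adjusted p = 0.0211), lower among immature thymic cells (-0.35, adjusted p = 0.0805, with overlap, and lost under 7 of 19 alternatives) and lower among mature cells (-0.58, adjusted p = 0.00683). In order of mean level the groups ran from immature thymic cDC1 through immature thymic cDC2, mature thymic cDC1, mature thymic cDC2 and splenic cDC2 to splenic cDC1. Immature thymic cDC2 and mature thymic cDC1, next to each other in this order, did not differ beyond their spread (0.10, adjusted p = 0.573).

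The region before the start of Stat2 (RefSeq, GRCm38.p6, the build of the deposited files) is shown because it holds the letters of an interferon-stimulated response element (ISRE), the DNA sequence bound by the complex of STAT2 with IRF9. RefSeq windows from 250 bases before to 50 bases after a gene's start were found for all 6 members, 9 windows in all. They were searched on both strands for GAAANNGAAA (ISRE) and for TTCNNNGAA (GAS, the element of the other STAT pairs). The ISRE letters stood in 2 of the 9 windows, 1 of Stat2 and 1 of Stat4, and in 3.44% of the 32851 windows of the table. The GAS letters stood in none of the 9, and in 8.3% of all windows. The stretches below run 5′ to 3′ on the + strand with the ISRE letters in capitals, which in Stat2 read on the opposite strand. The Stat2 stretch, chr10:128270256-128270305, lies upstream of the annotated gene, and its match at 128270276 to 128270285 begins upstream of the RefSeq start, at offset -222. The Stat4 stretch, chr1:52008123-52008172, lies inside the annotated gene, in no exon, upstream of another RefSeq start of the gene (offset -97).
Stat2: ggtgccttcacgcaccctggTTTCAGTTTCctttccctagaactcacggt
Stat4: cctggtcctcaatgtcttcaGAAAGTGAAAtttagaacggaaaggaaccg
Gene-level counts do not say which start was used, and a match is a description of letters, not of binding.

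The 22 interferon target genes listed for the comparison, of the kind STAT2 with IRF9 is known to switch on, were compared between thymic and splenic cells. In cDC1, 20 of 22 were called and all 20 rose, where 4.26% of all genes did (median log2 fold change 2.35, against 0.00 over all genes tested). In cDC2, 17 of 22 were called and all 17 rose, where 8.30% of all genes did (median 1.55, against 0.02), and 16 rose in both subsets. Oasl1, a relative of the viral RNA sensors of the OAS family, averaged 117 ± 36.6 (SD, n = 4) normalized reads in splenic and 1801 ± 361 (n = 4) in immature thymic cDC1 (log2 fold change 3.95). Isg15, a ubiquitin-like protein, rose by 3.13 in cDC1 and 2.41 in cDC2, and Ifi44 rose by 3.57 and 3.62. Irf9, the DNA-binding partner of STAT2, averaged 2674 in splenic and 3352 in immature thymic cDC1, a log2 difference of 0.33 that passed the test (adjusted p = 0.0558) without reaching 2-fold. In cDC2 the Irf9 difference was 0.16 (adjusted p = 0.417).

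Markers of other cell types differed between the same groups. Of 4 plasmacytoid DC genes tested, 1 was called and higher in thymic cDC1 and all 4 in thymic cDC2, and the summed normalized reads of the 5 listed were 1010 to 1369 in splenic and 1120 to 1592 in immature thymic cDC1, but 200 to 316 in splenic and 1338 to 1849 in immature thymic cDC2. Siglech, a defining gene of plasmacytoid DCs, was detected in every splenic and immature thymic sample. Of 5 thymic epithelium genes, 3 were higher in thymic cDC1 and all 5 in thymic cDC2, and their sums were 56.2 to 79.3 and 587 to 710 in splenic and immature thymic cDC1, and 96.1 to 156 and 3499 to 3866 in cDC2, where Epcam gave most of the reads. Foxn1, the defining epithelial factor among them, was at 0 in every splenic sample and averaged 1.28 in immature thymic cDC1 and 5.35 in immature thymic cDC2. Of 8 T cell genes, 7 were higher in thymic cDC1, and 4 were higher and 1 lower in thymic cDC2. Of 5 macrophage genes tested, none was called in cDC1 and 2 were higher in thymic cDC2, with sums of 1429 to 1513 in splenic and 4158 to 6904 in immature thymic cDC2. Of 3 B cell genes tested, 3 were lower in thymic cDC1 and 2 in thymic cDC2. The B cell sums were 566 to 984 in splenic and 106 to 139 in immature thymic cDC1. Of all genes 8.77% were called in cDC1 and 14.2% in cDC2. The part of such cells in the Stat2 and interferon target levels was not tested.

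With maturation the same 22 interferon target genes split. In cDC1, where 21.3% of all genes rose and 24.5% fell by more than 2-fold, 7 rose and 4 fell. Among them were Rsad2 (2.58), Ifit1 (2.19) and Oasl2 (2.14) upward and Isg20 (-2.47) and Ifi44 (-2.31) downward. Summed over the 22, normalized reads were 46477.1 to 53820.5 in immature and 53803.5 to 83974.8 in mature thymic cDC1. The median mature sample was at 54131.4, so 1 mature sample stood far above the others. The part of that sample in these changes, and in the subset differences below, was not tested. In cDC2, where 18.6% of all genes rose and 17.0% fell, 1 rose and 13 fell, with Ifit3 (-3.09), Ifit2 (-2.53) and Isg20 (-2.23) the most lowered. The riser in cDC2, Mx1, named here after its values were seen, reached 19838 ± 3040 (n = 3) in mature cDC2 from 5283 ± 904 (n = 3) in immature cells. Between the subsets the maturation effects differed by more than 2-fold for 10 of the 22, all lower in cDC2, where 13.6% of all genes differed and 5.25% were lower. Stat2 itself was not one of these (difference -0.23, SE 0.20, adjusted p = 0.507).

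**Figure D2:**
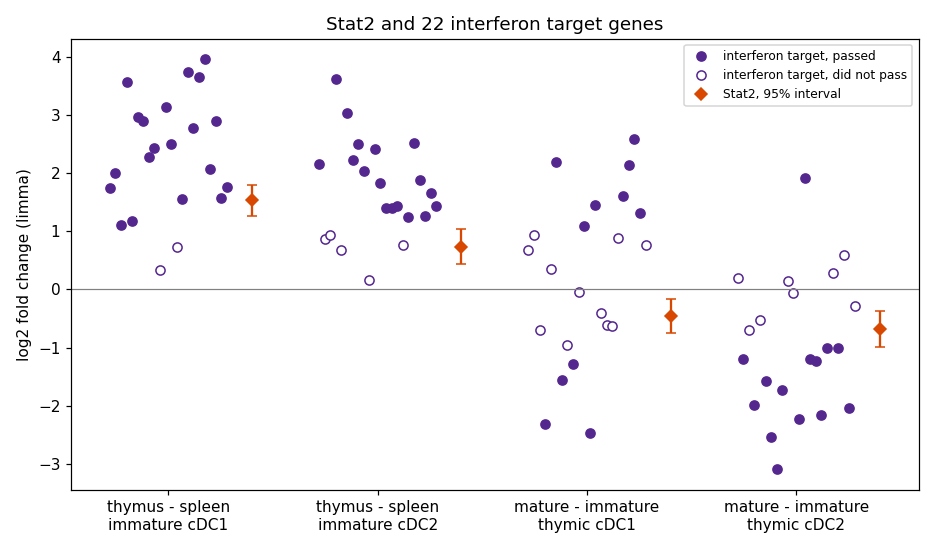
log2 fold change of 22 interferon target genes (circles, filled where called at adjusted p under 0.1 and more than 2-fold) and of Stat2 (diamond with 95% interval) in 4 comparisons. Between thymus and spleen all called genes and Stat2 (1.53 in cDC1, 0.74 in cDC2) lie above 0, and with maturation Stat2 lies below 0 in both subsets.

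Stat3, which serves IL-6, IL-10 and IL-21 and restrains dendritic cell activation, rose with maturation in both subsets. Its normalized read counts were 4552, 3884, 3625 and 3639 in immature and 14251, 13138 and 17412 in mature thymic cDC1 (log2 fold change 1.92, SE 0.14, adjusted p = 3.64e-10). In cDC2 they were 4864, 4944 and 4254 in immature and 14476, 14964 and 12942 in mature cells (1.59, SE 0.15, adjusted p = 3.54e-08). The groups lay far apart, with mean ratios of 3.80 and 3.01, and the 2 effects were not told apart (difference -0.33, SE 0.21, adjusted p = 0.325). Between tissues Stat3 went the other way from Stat2. The splenic samples held 4585, 5196, 6021 and 4868 in cDC1 and 7406, 6733 and 9049 in cDC2, above the immature thymic samples by log2 0.40 (adjusted p = 0.0535) and 0.71 (adjusted p = 0.00182). Neither difference reached 2-fold, and in cDC1 the adjusted p ranged from 0.0152 to 0.143 over the alternatives tried. Between the mature subsets the 95% interval of the Stat3 difference ran from -0.39 to 0.24 around -0.07.

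Stat4, the transducer of IL-12 and IL-23, was the STAT gene that varied most. In immature thymic cDC1 it was close to absent, with 15, 18, 0 and 16 reads in the 4 libraries, or 12.7, 15, 0 and 16.2 normalized reads, where a count of 0 allows up to 3 reads. In mature thymic cDC1 it stood at 4244, 4353 and 3791 normalized reads. The fitted log2 fold change was 9.04 (SE 0.64, adjusted p = 2.10e-10), and the ratio of means was 377. It depends on the treatment of the low group and ranged from 7.89 to 9.94 over the alternatives, each past the test. Immature thymic cDC2 held 177, 216 and 160 normalized reads and mature thymic cDC2 held 3908, 4377 and 5874 (log2 fold change 4.66, SE 0.69, adjusted p = 1.15e-05, ratio of means 25.6). The rise in cDC2 was smaller than that in cDC1 (difference -4.38, SE 0.94, adjusted p = 0.00382, range -5.27 to -3.28 over the alternatives, and -3.39 without immature thymic cDC1 replicate 3), and the mature groups overlapped (0.17, SE 0.69, adjusted p = 0.890).

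Stat4 was also lower in immature thymic than in splenic cells. Splenic cDC1 held 67.9, 94.7, 71.1 and 95.1 normalized reads, each above every immature thymic cDC1 sample (log2 fold change -3.39, SE 0.59, adjusted p = 3.83e-04, ratio of means 7.50). Without immature thymic cDC1 replicate 3, the sample at 0, it was -2.40, and it ranged from -4.27 to -2.36 over the alternatives, each past the test. Splenic cDC2 held 519, 968 and 401, with replicate 2 the highest, against 160 to 216 in the thymus (-1.67, SE 0.69, adjusted p = 0.0945). That call rests near the threshold: the adjusted p ranged up to 0.636 and was above 0.1 under 10 of 16 alternatives, with a value of -1.31 without splenic cDC2 replicate 2. The cDC2 level exceeded the cDC1 level in spleen (2.84, SE 0.64, adjusted p = 0.00216, ratio of means 7.66) and among immature thymic cells (4.56, SE 0.64, adjusted p = 1.56e-05, ratio 16.8). The latter ranged from 3.46 to 5.44 over the alternatives and was 3.57 without the sample at 0. Within lane 8 the splenic difference was 2.27 with an adjusted p of 0.288. In order of mean level Stat4 ran from both mature thymic groups through splenic cDC2, immature thymic cDC2 and splenic cDC1 to immature thymic cDC1, and immature thymic cDC2 and splenic cDC1 did not pass the test (1.16, adjusted p = 0.223) although their samples did not overlap.

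Lymphoid cells express Stat4 too, and markers of such cells differed between the groups. The summed normalized reads of 8 T cell genes (Cd3e, Cd3d, Cd3g, Lck, Cd5, Trac, Trbc2 and Bcl11b) were 219 to 258 in immature and 705 to 1165 in mature thymic cDC1, and 228 to 386 in immature and 785 to 1512 in mature thymic cDC2. Of these 8, 7 rose with maturation in both subsets and 1 fell in cDC1. Cd3e averaged 52.2 in mature and 7.46 in immature thymic cDC1. The summed reads of 5 thymocyte genes were 106 to 172 in immature and 1005 to 1523 in mature thymic cDC1, and 152 to 159 and 417 to 555 in cDC2. The NK cell genes, 6 in number, summed to 114 to 187 in splenic cDC2, mostly Gzma (107), and to between 0 and 11.7 in the other groups. The NK receptor gene Ncr1 was at 0 in every thymic sample and averaged 13.3 in splenic cDC2, whose gate as labelled has no DX5 exclusion. The part of these cells in the Stat4 levels was not tested. In bulk samples a change in the share of a cell type and a change of RNA per cell cannot be told apart.

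**Figure D3:**
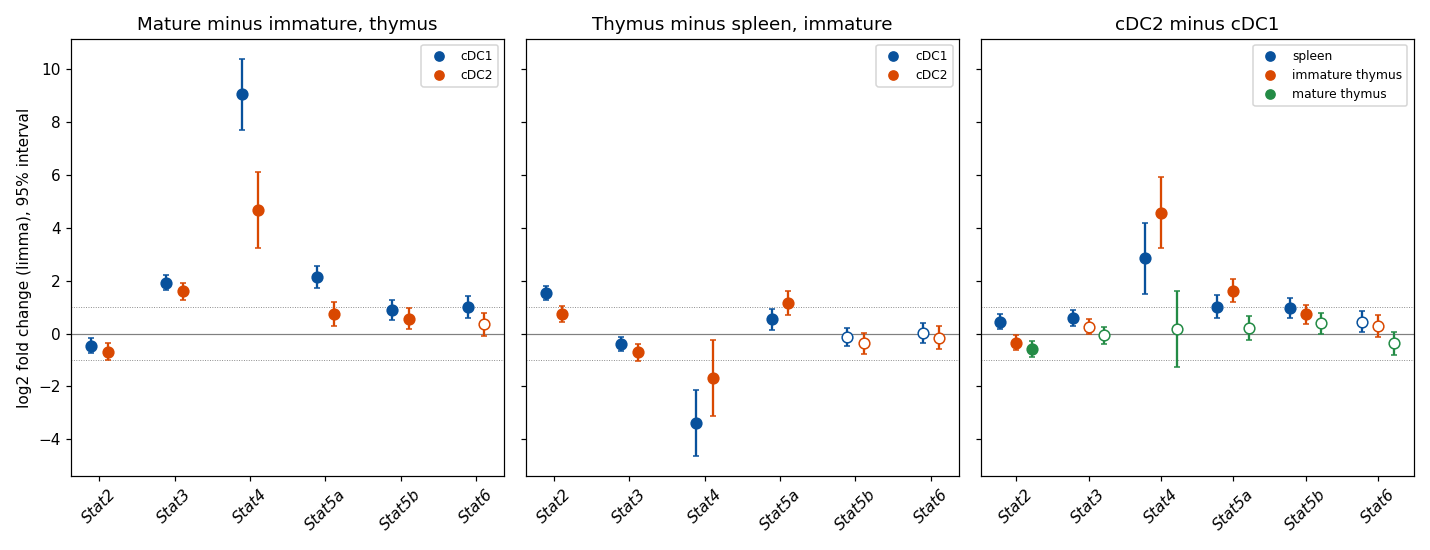
log2 fold change of each STAT gene with its 95% interval for maturation, tissue and subset, filled where the adjusted p is under 0.1, with dotted lines at 2-fold. Stat4 has the widest range, from -3.39 between immature thymic and splenic cDC1 to 9.04 with maturation of cDC1, and the intervals of Stat5b and Stat6 between tissues include 0.

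Stat5a and Stat5b, near-identical genes that lie 8.63 kb apart on chromosome 11 and serve GM-CSF, IL-2 and TSLP, did not move alike. Reads from stretches they share cannot be assigned to 1 gene with certainty, and how the counting treated them is not given. Their single values are therefore less certain than those of the other members. Stat5a was at 1483, 1313, 1304 and 1184 normalized reads in immature and 5455, 4527 and 7880 in mature thymic cDC1 (log2 fold change 2.14, SE 0.20, adjusted p = 1.70e-08). In cDC2 it was at 3939, 4171 and 4045 in immature and 7328, 7529 and 5613 in mature cells (0.74, SE 0.22, adjusted p = 0.00825). The maturation effects differed (-1.40, SE 0.30, adjusted p = 0.00365), and Stat4 and Stat5a were the 2 STAT genes of 6 for which they did, against 13.6% of all genes. The immature cells of the subsets differed most, by 1.62 (SE 0.20, adjusted p = 3.83e-06), and the mature ones by 0.22 with overlapping samples (adjusted p = 0.504).

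Splenic Stat5a values were 745, 891, 1195 and 860.5 in cDC1 and 1950, 1316 and 2407 in cDC2. Immature thymic cDC2 exceeded splenic cDC2 in every sample (log2 fold change 1.14, SE 0.22, adjusted p = 6.98e-04), a difference that within lane 8 was 0.77 with an adjusted p of 0.140 and without splenic cDC2 replicate 2 was 0.90, under 2-fold (adjusted p = 0.00533). The splenic subsets differed by 1.013 (SE 0.20, adjusted p = 7.31e-04), a value that stayed past the test under all 19 alternatives and ranged from 0.82 to 1.25, on either side of the 2-fold line. In cDC1 the ranges met, and the difference of 0.53 passed narrowly (adjusted p = 0.0735) and was lost under 10 of 19 alternatives. The 2 tissue effects on Stat5a were not told apart (0.61, SE 0.29, adjusted p = 0.339).

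Stat5b moved less. It ran from 1610 to 1907 normalized reads in immature and from 2717 to 4532 in mature thymic cDC1 (log2 fold change 0.88, SE 0.18, adjusted p = 2.48e-04), and from 2846 to 3120 and 3881 to 4593 in the cDC2 groups (0.56, SE 0.19, adjusted p = 0.0210). The lowest mature value was above the highest immature one in both subsets. It did not pass between tissues (-0.13, adjusted p = 0.757 in cDC1, and -0.37, adjusted p = 0.187 in cDC2). Splenic cDC2 held 3834, 2970 and 4830, above splenic cDC1 with 1734 to 2447 (0.97, SE 0.18, adjusted p = 3.06e-04), and the immature thymic subsets differed in the same direction (0.72, adjusted p = 0.00500).

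The Stat5a share of the summed reads of both genes, which needs no scaling between libraries, brings the difference out. It was 31.8% ± 1.28 (SD, n = 4) in splenic cDC1 and 32.6% ± 1.62 (n = 3) in splenic cDC2, 42.5% ± 2.19 (n = 4) in immature thymic cDC1 and 58.0% ± 0.75 (n = 3) in immature thymic cDC2, and 63.8% ± 1.51 (n = 3) and 61.1% ± 1.77 (n = 3) in the mature cDC1 and cDC2. Stat5b supplied most of the reads in spleen and Stat5a most in all thymic groups but immature cDC1. The thymic and splenic cDC1 samples did not overlap (difference 10.6 percentage points, two-sided exact permutation p = 0.0286, adjusted over 7 comparisons 0.133). Those of immature and mature thymic cDC1 did not overlap either (21.3 points, exact permutation p = 0.0571, adjusted 0.133), nor did those of immature cDC1 and cDC2 in the thymus (15.5 points, exact permutation p = 0.0571, adjusted 0.133) or of thymic and splenic cDC2 (25.4 points, exact permutation p = 0.1, adjusted 0.14). These p-values are the smallest that groups of 4 and 4, 4 and 3, and 3 and 3 samples allow, and none passed after adjustment. The tests treated samples that share a label number within splenic cDC1 and within immature thymic cDC1 as separate. In the spleen the subsets differed by 0.72 points (exact permutation p = 0.571).

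**Figure D4:**
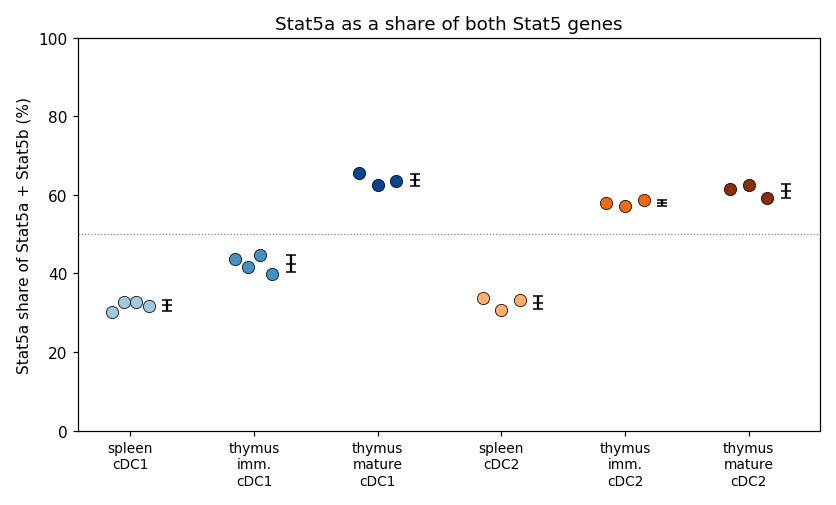
Stat5a as a percentage of the summed normalized reads of Stat5a and Stat5b, with 1 point per sample and the group mean with its SD beside them for the 6 groups. Both splenic groups sit near 32%, immature thymic cDC1 at 42.5% and the other thymic groups between 58.0% and 63.8%.

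Stat6, which carries the IL-4 and IL-13 signal, was the member with the fewest differences. It was at 4695, 4811, 4709 and 3474 normalized reads in immature and 8415, 6741 and 11791 in mature thymic cDC1, with no overlap (log2 fold change 1.00, SE 0.19, adjusted p = 1.77e-04). The value lies just inside the 2-fold line (0.996 before rounding), so Stat6 was not called there. In cDC2 it was at 4984, 5412 and 5569 in immature and 7607, 7337 and 5540 in mature cells (0.35, SE 0.21, adjusted p = 0.185), with overlap. Splenic cells held 3817 to 5393 in cDC1 and 4809 to 7592 in cDC2. Stat6 did not pass between tissues (0.01, adjusted p = 0.989 in cDC1, and -0.16, adjusted p = 0.663 in cDC2) or between subsets in spleen (0.45, adjusted p = 0.110), immature thymic cells (0.28, adjusted p = 0.393) or mature cells (-0.37, adjusted p = 0.218).

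By the adjusted p alone, all 6 STAT genes differed with maturation in cDC1 (5 higher and Stat2 lower), where 64.1% of all genes passed, 30.4% higher and 33.7% lower. In cDC2, 5 of 6 did (4 higher and Stat2 lower), where 53.2% of all genes passed, 27.7% higher and 25.5% lower. Between tissues 4 of 6 passed in cDC1 (15.4% of all genes) and 4 in cDC2 (26.5%), and between subsets 5 of 6 passed in spleen (29.4%) and 4 in immature thymic cells (26.0%). The maturation effects differed for 2 of 6 (18.5%). The median log2 fold change of the 6 was 1.46 in cDC1 and 0.65 in cDC2, against -0.04 and 0.04 over all genes tested. Levels were also taken per kilobase of exon, with the exons of all annotated transcripts merged. The order of the genes on this scale depends on that length, which was 9527 bases for Stat3 and 4402 for Stat6. Stat6 was the most abundant member in splenic cDC1 with 998 ± 166 normalized reads per kb, ahead of Stat2 (544) and Stat3 (542), with Stat4 last (21.2). In immature thymic cDC1 Stat2 led with 1584 ± 205 per kb, and Stat4 was again last with 2.83. In mature thymic cDC1 Stat6 (2041 ± 584) and Stat3 (1568 ± 233) led and Stat4 reached 1066 ± 77.0, above Stat5a (835) and Stat5b (609). Mature thymic cDC2 had the narrowest range, from 769 for Stat2 to 1551 for Stat6.

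Single samples were the highest of their group for several members at once. Mature thymic cDC1 replicate 3 was the highest of its group for Stat2, Stat3, Stat5a, Stat5b and Stat6, and the lowest for Stat4. Replicate 3 of splenic cDC1 and replicate 3 of splenic cDC2, both on lane 8, were the highest of their groups for Stat3, Stat5a, Stat5b and Stat6. The summed values of all genes were also highest in mature thymic cDC1 replicate 3 (31465054, against 27250335 and 27346342) and in splenic cDC2 replicate 3 (24204483, against 23668761 and 22185580). In splenic cDC1 replicate 3 they were not (22874779, against 23346868 in replicate 1). The share of all genes highest in these replicates was not counted. Over all 20 samples, which share groups and are not independent of them, Stat3 and Stat4 ran most alike among the members (Pearson r of log2 values 0.90, a description). Stat2 ran with none of the others, with r between -0.28 and 0.26.

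Among 10224 genes with a mean of at least 100, the 3 that ran most like each member over the 20 samples were found as a description. For Stat2 they were Ifi204 (r = 0.94), an interferon-inducible DNA sensor, Mx2 (0.93), an interferon-induced antiviral GTPase that is also on the interferon target list, and Sema4b (0.90). For Stat3 they were Mical3 (0.99), AC149090.1 (0.99) and Cbx7 (0.98), a Polycomb protein. For Stat4 they were Specc1 (0.97), 4930523C07Rik (0.96) and Gbp4 (0.96), a guanylate-binding protein. For Stat5a they were Il4i1 (0.97), a secreted amino acid oxidase, Flrt3 (0.97) and Phldb1 (0.97). For Stat5b they were Neu1 (0.97), the lysosomal sialidase, Clcn7 (0.95), a lysosomal chloride transporter, and Gramd1a (0.95). For Stat6 they were Jup (0.96), the junction protein plakoglobin, Tjap1 (0.95) and Tfe3 (0.94), a transcription factor of lysosomal genes.

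The 4 JAK kinases that phosphorylate the STATs all rose with maturation in both subsets by the adjusted p, where 30.4% of all genes rose in cDC1 and 27.7% in cDC2. By more than 2-fold, 3 of 4 rose in cDC1 and 2 of 4 in cDC2, where 21.3% and 18.6% of all genes rose. Jak2, which serves GM-CSF and IL-12 receptors, averaged 13436 ± 1738 (n = 4) normalized reads in immature and 40000 ± 2498 (n = 3) in mature thymic cDC1 (log2 fold change 1.58, SE 0.19). Tyk2, the kinase of the interferon, IL-12 and IL-23 receptors, rose by 1.28 in cDC1 and by 2.05 in cDC2, where it went from 3854 ± 224 to 16049 ± 2342 (n = 3 each). Jak3, which serves the common gamma chain, rose by 1.03 and 1.15, and Jak1 rose by 0.78 and 0.65 without reaching 2-fold. Between tissues no JAK gene passed in cDC1, and 2 of 4 passed in cDC2, where 26.5% of all genes did. In cDC2 Jak3 fell by 1.11 on the log2 scale and was the only JAK gene called. Jak2 averaged 16956 ± 2166 in splenic and 28991 ± 3153 in immature thymic cDC2 (n = 3 each), without overlap.

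Of 37 listed receptors that act through STATs, 31 were tested. With maturation 13 rose and 6 fell in cDC1, where 21.3% of all genes rose and 24.5% fell, while 12 rose and 4 fell in cDC2, where 18.6% and 17.0% did, with 11 higher and 4 lower in both. Il23r, the IL-23 receptor subunit, was under 3 normalized reads on average in both immature thymic groups and averaged 900 ± 99.3 (n = 3) in mature cDC1 and 528 ± 101 (n = 3) in mature cDC2. The largest rises also took in Il9r (7.33 in cDC1 and 7.20 in cDC2), Il2ra (7.50 and 6.21) and Il15ra (5.84 and 5.94), which bind IL-9, IL-2 and IL-15. Il21r, the IL-21 receptor, rose by 7.62 in cDC1, from 58.0 ± 13.2 to 11503 ± 1703, and by 2.96 in cDC2. The leukemia inhibitory factor receptor gene Lifr fell by 3.73 in cDC2.

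Further receptor genes are given after their values were seen, because they pair with single STATs. Il12rb2, the signalling subunit of the IL-12 receptor, averaged 774 ± 150 (n = 4) in immature and 890 ± 244 (n = 3) in mature thymic cDC1 and did not pass (log2 fold change 0.19, adjusted p = 0.409). Il12rb1, the subunit that the IL-12 and IL-23 receptors share, rose from 2.50 ± 5.0 to 16.5 ± 7.09 in cDC1, a low level throughout. The IL-4 receptor gene Il4ra rose by 4.25 in cDC1 and 1.94 in cDC2. Il6ra fell by 4.62 in cDC1 and fell by 2.99 in cDC2, and Ifngr1 fell by 3.05 and fell by 2.40. Il2rg, the common gamma chain, rose by 3.96 in cDC1 and did not pass in cDC2 (0.26, adjusted p = 0.432).

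**Figure D5:**
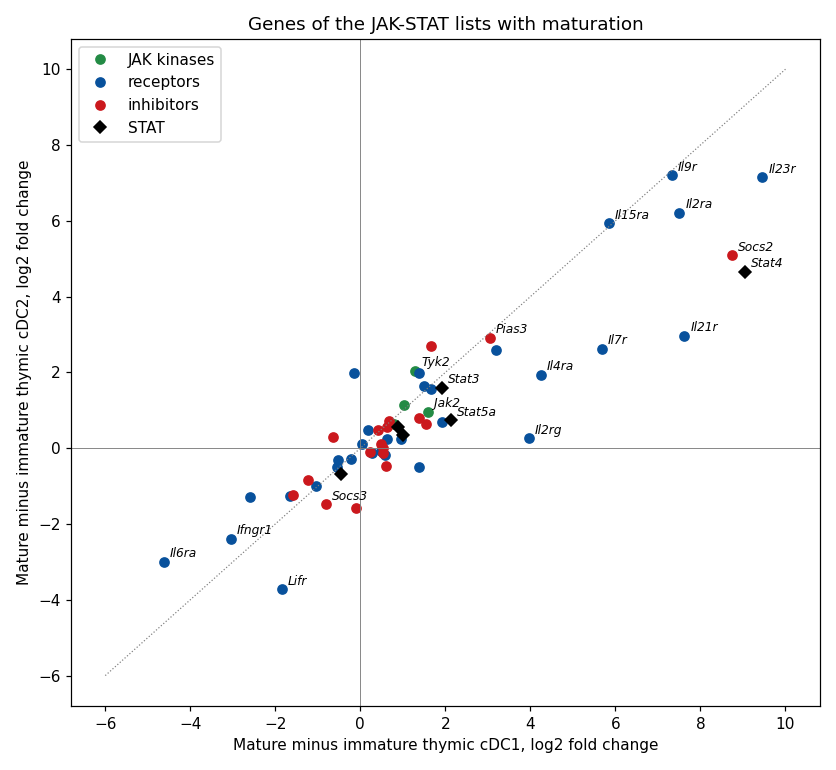
log2 fold change with maturation in thymic cDC2 against thymic cDC1 for the STAT genes (diamonds), JAK kinases, receptors and inhibitors (circles), with the line of equal change dotted. Stat4 (9.04, 4.66), Il21r (7.62, 2.96) and Socs2 (8.75, 5.09) lie below the line, whereas Il15ra (5.84, 5.94) lies near it.

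Of the 18 inhibitors of the pathway, 5 rose and 2 fell with maturation in cDC1, and 3 rose and 3 fell in cDC2. These 7 of 18 and 6 of 18 were no larger shares than the 45.7% and 35.6% of all genes called. Socs2, a feedback inhibitor and known STAT5 target, averaged 44.2 ± 12.4 (n = 4) in immature and 18874 ± 714 (n = 3) in mature thymic cDC1 (log2 fold change 8.75), and 679 ± 38.7 and 23488 ± 4422 (n = 3 each) in cDC2 (5.09). Pias3, an inhibitor of STAT3, rose by 3.04 and 2.91. Socs3, which restrains STAT3 signalling, fell by 1.48 in cDC2 and fell by 0.81 in cDC1.

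Between thymus and spleen the inhibitors went 1 way, with 5 higher in cDC1, 6 higher in cDC2 and none lower among the called, and 5 higher in both. Of all genes 4.26% were higher in cDC1 and 8.30% in cDC2. Cish, a STAT5-induced inhibitor, averaged 4.03 ± 3.25 (n = 4) in splenic and 156 ± 27.9 (n = 4) in immature thymic cDC1, and 37.6 ± 5.64 and 1663 ± 319 (n = 3 each) in the cDC2 (log2 fold changes 5.32 and 5.42). Socs3 rose by 2.94 and 2.91, Usp18, an interferon-induced brake on the interferon receptor, by 2.96 and 2.45, Socs2 by 1.79 and 5.04, and Socs1 by 1.41 and 1.60.

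A further 23 genes known as targets of STAT3, STAT4, STAT5 or STAT6 in other cells were followed, of which 20 could be tested. With maturation 8 rose and 5 fell in cDC1, where 21.3% of all genes rose and 24.5% fell, and 4 rose and 6 fell in cDC2, where 18.6% and 17.0% did. The 4 of 20 that rose in cDC2 lie close to the share over all genes. Ccl22, a STAT6-responsive chemokine and also a maturation marker, rose by 6.35 in cDC1 and 3.63 in cDC2. Osm, the STAT5 target oncostatin M, rose by 4.44 in cDC1 and fell by 1.21 in cDC2. Myc fell by 5.09 in cDC1, and Bcl2l1, the survival gene, rose by 2.66 in cDC2. Between tissues Ccl17, another STAT6-responsive chemokine, rose from 7.46 ± 6.47 to 5689 ± 778 (n = 3 each) in cDC2 and from 4.03 ± 3.62 to 218 ± 66.9 (n = 4 each) in cDC1.

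All 6 genes lie on chromosomes 1, 10 and 11 of mm10. Stat4 is at chr1:51987148-52107189 and Stat6 and Stat2 at chr10:127642986-127660957 and chr10:128270559-128292849, all on the + strand. On chromosome 11 Stat5b (100780731 to 100850724, - strand), Stat5a (100859351 to 100885169, + strand) and Stat3 (100885098 to 100939540, - strand) are direct neighbours. The last exons of Stat5a and Stat3 share 72 bases on opposite strands, and Stat6 shares 40 exon bases with Nab2 on the opposite strand. The library kit marked strand, but the strand setting of the counting is not given in the sources used here, so reads from those bases cannot be assigned with certainty.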

How the data were processed

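Messenger RNA of sorted cDC1 and cDC2 was sequenced in 21 libraries. Per the study's methods, the authors trimmed reads with Cutadapt, aligned them with STAR (version 2.6 in the submitters' processing notes) to mm10, counted them per gene with HTSeq and normalized the counts with DESeq2 (version 1.24.0). The deposited values are therefore a signal of reads per gene divided by 1 size factor per library, with no scaling by length. In every library 100% of values were whole multiples of 1 step (within 0.01 of a read), which gave back whole reads and the depths quoted. Among the STAT genes, Stat4 in immature thymic cDC1 had the fewest reads (0 to 18 per library), and the upper limit of 3 reads for a count of 0 covers counting error only. On the recovered reads edgeR called 6889 genes with maturation in cDC1 and 5426 in cDC2, where limma called 6848 and 5329.

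Genes at 10 or more in at least 3 of 20 samples were kept (14970 of 37734, all 6 STAT genes among them). Values were tested as log2(value + 1) with limma 3.58.1 (R 4.3.3), 1 mean per group over all 6 groups, with Benjamini-Hochberg adjustment over all genes tested. A fold change on this scale draws in the change of low genes, except that Stat4 in immature thymic cDC1, with 1 sample at 0, gave larger fitted folds than its ratios of means. Calls needed an adjusted p under 0.1 and over 2-fold, the limits the study used. The procedure was tested on simulated data first. Differences of effects were contrasts of the same fit. The Stat5a share was compared with exact permutation tests. edgeR 4.0.16 and DESeq2 1.42.0 on the recovered reads, other pseudocounts, filters and scalings, lane 8 alone and leaving out each sample were alternatives.

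The genes and lists were chosen with earlier results of these data known. The text names all STAT and JAK genes, up to 5 called genes of each other list by size of change with a mean of at least 100 in 1 group, the 3 genes most like each STAT gene, and sorting and marker genes where needed. Of the 37734 gene IDs, 37607 matched GENCODE M21 (mm10), which gave positions and exon lengths.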

Additional observations from a re-analysis of the deposited data

Results flagged for a closer look

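In 3 of the 12 groups of 4 samples checked over the 6 STAT genes, 1 sample stood apart from the others of its group by Dixon's criterion, which chance alone meets in about 1 group in 20. Stat2 in immature thymic cDC1 was 7571 in replicate 3, below the other samples at 9906 to 10094. Stat5b in splenic cDC1 was 2447 in replicate 3, above the others at 1734 to 1850. Stat6 in immature thymic cDC1 was 3474 in replicate 4, below the others at 4695 to 4811.

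For 3 STAT genes the same contrast gave a different effect in cDC2 and cDC1, by the limma contrast of the 2 effects. The maturation effect on Stat4 was smaller in cDC2 (log2 difference -4.38, adjusted p = 0.00382), and that on Stat5a was smaller too (difference -1.40, adjusted p = 0.00365). The tissue effect on Stat2 was smaller in cDC2 (difference -0.80, adjusted p = 0.0185).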

How the results depend on the processing

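The count of STAT genes called was recomputed under each alternative. By the adjusted p alone it was 6 with maturation in cDC1 (3 as reported), 5 with maturation in cDC2 (2), 4 between tissues in cDC1 (2) and 4 in cDC2 (2), 5 between subsets in spleen (2), 4 among immature thymic cells (2), 1 among mature cells (0) and 1 for the difference of tissue effects (0). With more than 4-fold required (log2 above 2) the STAT count was 1 with maturation in cDC2, between tissues in cDC1, between subsets in spleen and in immature thymic cells, and for the difference of maturation effects, and 0 between tissues in cDC2. A filter on 10 or more in every sample, which removes Stat4, left 1 in each of those comparisons and 1 between tissues in cDC2. The STAT count between tissues in cDC2 was also 1 with a pseudocount of 0.1, without a filter and with TMM scaling, and 0 within lane 8. Between subsets in spleen it was 1 with edgeR's quasi-likelihood test, with TMM scaling and with 1 sample per label number. Leaving out 1 sample at a time, the STAT count ran from 3 to 5 with maturation in cDC1 (5 without mature thymic cDC1 replicate 2), from 0 to 1 between tissues in cDC2 (0 without splenic cDC2 replicate 2, 1 without any other sample) and from 1 to 3 between subsets in spleen (1 without replicate 1 or 4-5 of splenic cDC1 or replicate 1 or 3 of splenic cDC2), and it kept its value in the other comparisons. Directions turned only for STAT effects near 0. The Stat6 tissue effect in cDC1 (0.01) was -0.023 with edgeR, -0.0028 with 1 sample per label number, -0.093 within lane 8, and -0.051 to 0.12 over single samples left out. The Stat6 tissue effect in cDC2 (-0.16) ran from -0.31 to 0.023, the Stat6 difference of tissue effects (-0.17) from -0.32 to 0.011 and the Stat3 difference between mature subsets (-0.07) from -0.16 to 0.043 over single samples left out. The cause of these shifts was not tested. With the label number as a replicate block, the STAT count between subsets was 1 in spleen and 2 in immature thymic cells. Libraries that share a label number did not deviate together throughout (correlations of their deviations between subsets from -0.15 to 0.46), so the numbers were not taken to pair the samples. No paired analysis was possible in the other comparisons because the groups share fewer than 2 numbers. The differences of the Stat5a share kept their sign when any 1 sample was left out.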

Other observations

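The other genes of the pathway also differed between the subsets, mostly toward cDC2. Of the 31 receptor genes tested, 10 were higher and 2 lower in splenic cDC2 than in splenic cDC1, 11 were higher and none lower among immature thymic cells, and 8 were higher and none lower among mature cells, where 16.6%, 16.4% and 18.9% of all genes were called in either direction. Csf3r, the G-CSF receptor, differed by a log2 of 6.02 in spleen, 4.64 among immature and 5.95 among mature thymic cells. Il2ra averaged 6383 ± 542 (SD, n = 3) normalized reads in mature thymic cDC2 and 1065 ± 399 (n = 3) in mature thymic cDC1. Of the 22 interferon target genes, 14 were higher in splenic cDC2, 12 in immature thymic cDC2 and 6 in mature thymic cDC2, and 1, Oasl1 among the mature cells (-2.13), was lower. Cish was higher in cDC2 in each of the 3 comparisons (3.31, 3.41 and 1.92).

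Of the 20 tested genes known as targets of STAT3, STAT4, STAT5 or STAT6 in other cells, 8 were higher and 1 lower in cDC2 in spleen, 12 and 2 among immature thymic cells, and 10 and 0 among mature cells, against 16.6%, 16.4% and 18.9% of all genes called. Il18rap, a subunit of the IL-18 receptor, differed by 3.27, 4.51 and 4.01, and Osm by 5.65 in spleen and 6.68 among immature thymic cells. Macrophage markers differed in the same comparisons, with 4 of 5 tested called and higher in cDC2 in each. Their summed normalized reads were 451 to 764 in splenic cDC1 and 1429 to 1513 in splenic cDC2, 785 to 1064 and 4158 to 6904 in the immature thymic subsets, and 5845 to 8279 and 4639 to 14011 in the mature ones. With maturation 2 of the 5 macrophage genes were called higher and 1 lower in cDC1, where 45.7% of all genes were called. In cDC2, 1 was called higher and none lower, where 35.6% were. The part of such cells in the differences between subsets and with maturation was not tested.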
